A study of Drosophila melanogaster with 28 samples.

Results

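Transposon RNA was examined in ovaries of Drosophila melanogaster in which a factor of the nuage had been knocked down in the germline. The libraries were chosen by the gene named in their labels: aub, spn-E, vasa, tej and squ, with 1 library each, and the 2 libraries in which the gene w was targeted as control. These are 7 of the 22 libraries with transposon values and of 28 libraries in all. Every one of the 7 came from whole dissected ovaries of flies whose germ cells expressed double-stranded RNA from a UAS transgene under the nos-GAL4 driver, so the control carried a driver and a hairpin as well. The driver leaves the follicle cells, which are somatic, with the targeted gene. The sources used here do not give fly age, the number of ovaries per library or the genetic background of each line. The 5 knockdowns were treated as a group whose members are different genes and not replicates of a condition. A score per transposon family was the deposited value, in whole numbers; it did not follow sequencing depth: the sum over families named for other Drosophila species varied 2.31-fold over the 22 libraries while genome-mapped reads varied 9.96-fold.

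The nuage is a cloud of protein and RNA around germline nuclei in which transposon transcripts are cut and turned into piRNAs, the small RNAs that guide PIWI proteins to transposons. Aubergine (aub) is a PIWI protein that slices transposon RNA there. Vasa is a DEAD-box RNA helicase and Spindle-E (spn-E) a helicase with a Tudor domain, a module that binds methylated arginines of PIWI proteins. Tejas (tej) is a Tudor-domain protein of the nuage, and Squash (squ) is a nuage protein that binds Aubergine. Loss of such factors in the germline is known to let transposons accumulate. How far each target was depleted was not analysed here, so the labels were not checked on the target.

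Genome-mapped reads numbered 4929854 for aub, 5770014 for spn-E, 4571353 for vasa, 20185962 for tej, 3329553 for squ, and 3831461 and 3037471 for the w libraries. The summed transposon score was 23441 for aub, 36030 for spn-E, 47488 for vasa, 18101 for tej and 20778 for squ, against 15342 and 12567 for w. All 5 knockdowns lay above both w libraries, and the deepest library, tej, had the lowest sum of the 5. The means were 29168 ± 12333 (SD, n = 5) and 13955 ± 1962 (SD, n = 2), a ratio of 2.09. A 2-sided exact permutation test gave p = 0.0952, the smallest value that 5 libraries against 2 allow. The 5 families with the highest scores made up 31.9% of the sum with aub, 40.1% with spn-E, 56.6% with vasa, 42.1% with tej and 34.7% with squ, and 16.8% and 12.8% in w. These are bulk ovaries, in which more germ cells and more RNA per germ cell cannot be told apart.

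The 5 knockdowns as a group were compared with w over the 159 of 176 families that reached a score of 10 in 2 or more of the 22 libraries. Families are ranked below among the 119 of these that are not named for other Drosophila species, except where such a name is given. The largest mean differences belonged to LTR retrotransposons, 3S18, blood, Burdock and diver, which stood 3.03 to 3.79 above w on the scale of log2(score + 1). No family passed in limma at a Benjamini-Hochberg adjusted p under 0.05 (0 called, 0% of 159), where 31 families (19.5%) had an unadjusted p under 0.05 and the lowest adjusted p was 0.0949, for Burdock. The count was 8 when the 2 ovary libraries joined w as control, 2 without a mean-variance trend (Burdock and blood), and 1 without the aub library (Burdock), without squ (Dnet_R1A) and without w replicate 1 (Dbuz_Galileo). For 21 families (13.2%) all 5 knockdowns lay above both w libraries, and for 14 (8.81%) all lay below both. The median difference over all 159 families was 0.12 as deposited and -0.71 if scores were divided by genome-mapped reads. It was -0.01 after median-ratio scaling and -0.03 after quantile normalization. These 2 scalings make the libraries alike, so their small values follow from the method and cannot show whether there was a common shift.

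**Figure D1:**
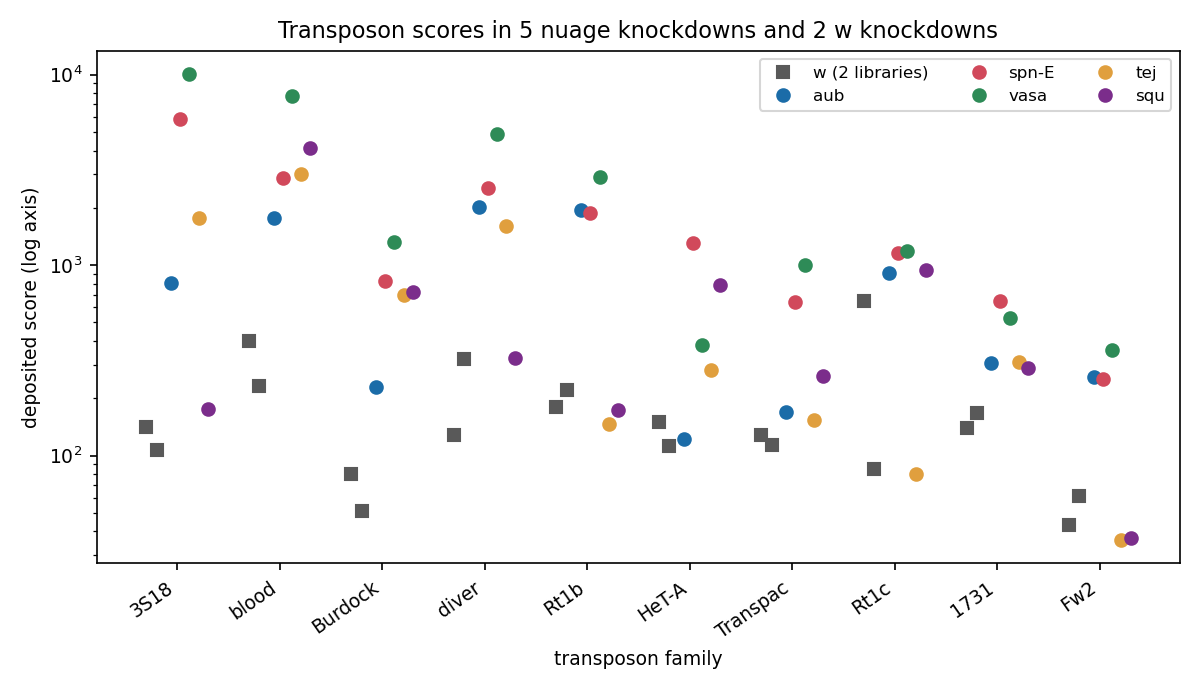
Deposited score (log axis) of the 10 families with the highest mean difference from w among the 119 not named for other species, in the 2 w libraries (grey squares) and in the libraries of aub, spn-E, vasa, tej and squ (coloured circles, 1 library each). For blood and Burdock all 5 knockdowns lie above both w libraries by 2-fold or more, for 3S18 and diver squ lies close to w, and for Rt1b and Fw2 tej and squ lie below both.

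Burdock and blood, LTR retrotransposons of the gypsy type, were the families at least 2-fold above the mean of w in all 5 knockdowns. The Burdock score was 229 with aub, 824 with spn-E, 1326 with vasa, 699 with tej and 727 with squ, and 80 and 51 in w. The groups did not overlap, and aub was the lowest of the 5. On the log2 scale the mean difference was 3.35 (SE 0.63, adjusted p = 0.0949 in limma). The blood score was 1777 with aub, 2873 with spn-E, 7705 with vasa, 3020 with tej and 4101 with squ, and 401 and 232 in w. Here too the groups did not overlap, and vasa was the highest, 25.2-fold above w, with aub the lowest at 5.81-fold. The mean difference of blood was 3.49 (SE 1.11, adjusted p = 0.198). Both families were also high outside the nuage set. The blood score was 2319 to 7153 with armi, zuc, gasz and shu, and 2395 to 6056 with rhi, del and cuff. It was 2645 to 4388 with piwi, mael and CG3893, and 4467 with U2A. Burdock scored 664 to 3291, 1173 to 3282, 719 to 1822 and 102 in the same order. With ars2 and Yb, blood scored 294 and 253, and Burdock 64 and 53.

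A second pair, 3S18 and diver, are LTR retrotransposons of the BEL/Pao type. They were high in 4 knockdowns and close to w in squ. The 3S18 score was 806 with aub, 5883 with spn-E, 10082 with vasa, 1760 with tej and 176 with squ, and 141 and 107 in w. It had the widest range of all families among the 5 knockdowns, 5.83 on the log2 scale, from 1.43-fold above w with squ to 81.4-fold with vasa, and its w libraries were 0.39 apart. Its mean difference was 3.79 (SE 1.45, adjusted p = 0.198). The diver score was 2029 with aub, 2527 with spn-E, 4882 with vasa, 1613 with tej and 327 with squ, and 129 and 322 in w. The squ value lay next to the higher w library, and the w libraries themselves were 1.31 apart on the log2 scale. The mean difference of diver was 3.03 (SE 1.07, adjusted p = 0.198). This pair was also high in other knockdowns. The 3S18 score was 5570 to 7388 with armi, zuc, gasz and shu, and 1867 to 10588 with rhi, del and cuff. It was 3984 to 5977 with piwi, mael and CG3893, and 232 with U2A. For diver the scores were 2611 to 2793, 1118 to 4279, 1012 to 2191 and 305 in the same order.

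The telomeric retrotransposons HeT-A and TAHRE, non-LTR elements that maintain fly chromosome ends, showed another order of the knockdowns. The HeT-A score was 122 with aub, 1301 with spn-E, 382 with vasa, 281 with tej and 788 with squ, and 151 and 112 in w. Thus aub lay between the w libraries, while spn-E was 9.93-fold and squ 6.02-fold above their mean. The TAHRE score was 159 with aub, 673 with spn-E, 359 with vasa, 222 with tej and 559 with squ, and 172 and 135 in w. Both elements had the order spn-E, squ, vasa, tej, aub. Neither mean difference passed: HeT-A had 1.69 (SE 0.82, adjusted p = 0.310) and TAHRE 1.17 (SE 0.57, adjusted p = 0.310).

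Another group of families was at least 2-fold above w in aub, spn-E and vasa and under that fold in tej and squ. It held Rt1b, Fw2, jockey and X-element, which are non-LTR retrotransposons, and the LTR elements gypsy and gypsy7, 6 families chosen after their values were seen as those at least 2-fold above w in exactly those 3 knockdowns. The Rt1b score was 1954 with aub, 1878 with spn-E, 2904 with vasa, 147 with tej and 174 with squ, and 179 and 221 in w. The first 3 were 9.78-fold, 9.40-fold and 14.5-fold above w, and tej and squ lay below both w libraries. The Fw2 score was 260, 252 and 359 with aub, spn-E and vasa, 36 with tej and 37 with squ, and 43 and 61 in w. For gypsy7 the scores were 225, 262 and 361 with aub, spn-E and vasa. They were 27 with tej and 39 with squ, each under both w values, 73 and 47. None of these passed: the mean difference of Rt1b was 1.95 (SE 1.27, adjusted p = 0.455), that of Fw2 1.29 (SE 0.95, adjusted p = 0.522) and that of gypsy7 1.00 (SE 1.00, adjusted p = 0.639). The split was less sharp for X-element, which scored 163 with aub, 163 with spn-E and 174 with vasa, but also 91 with tej and 122 with squ, above both w libraries at 80 and 70. The family named Dmir_spock, after an element of another Drosophila species, followed the same split with 325, 262 and 393 against 29 and 59 in tej and squ and 45 and 60 in w; the sources used here do not say how reads were divided among related families.

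**Figure D2:**
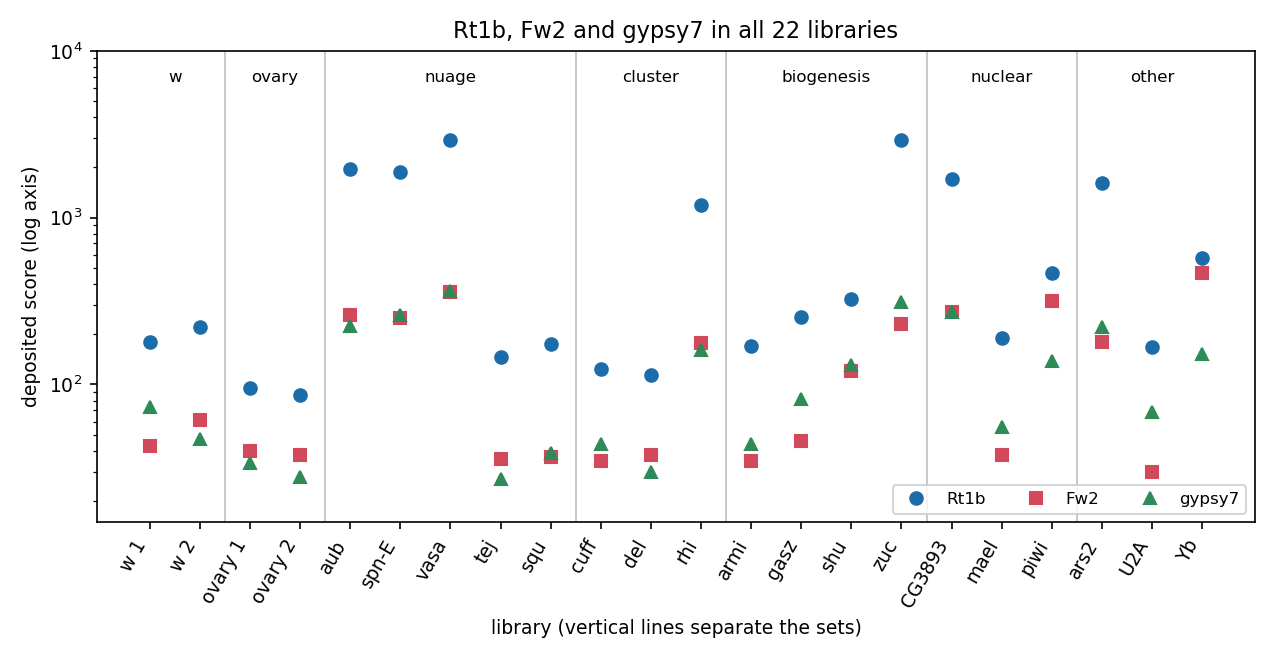
Deposited score (log axis) of Rt1b, Fw2 and gypsy7 in all 22 libraries, grouped by vertical lines into w, ovary, nuage, cluster, biogenesis, nuclear silencing and other libraries. High scores in aub, spn-E and vasa are matched in rhi, zuc, CG3893 and ars2, whereas tej and squ lie with del, cuff and armi near w. In piwi, Yb and shu, Fw2 and gypsy7 are also above w, and Rt1b lies between the high and the low libraries.

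The same 6 families were set beside the other knockdowns. All 6 were at least 2-fold above w with zuc and with CG3893 4 of 6 with rhi, ars2, piwi and Yb, 3 of 6 with gasz and shu, 1 of 6 with mael, and 0 of 6 with armi, del, cuff and U2A. The Rt1b score was 2903 with zuc, 1694 with CG3893, 1620 with ars2 and 1189 with rhi, and it was 171 with armi, 123 with cuff and 114 with del. The rhi, del and cuff proteins act as a complex on piRNA clusters, and Rt1b was high with rhi and below both w libraries with del and cuff; ars2 is a factor of nuclear RNA metabolism. These comparisons share the w libraries, so no test of likeness was made. The fly lines differ between libraries, and whether the lines differ in copies of these families was not tested.

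**Figure D3:**
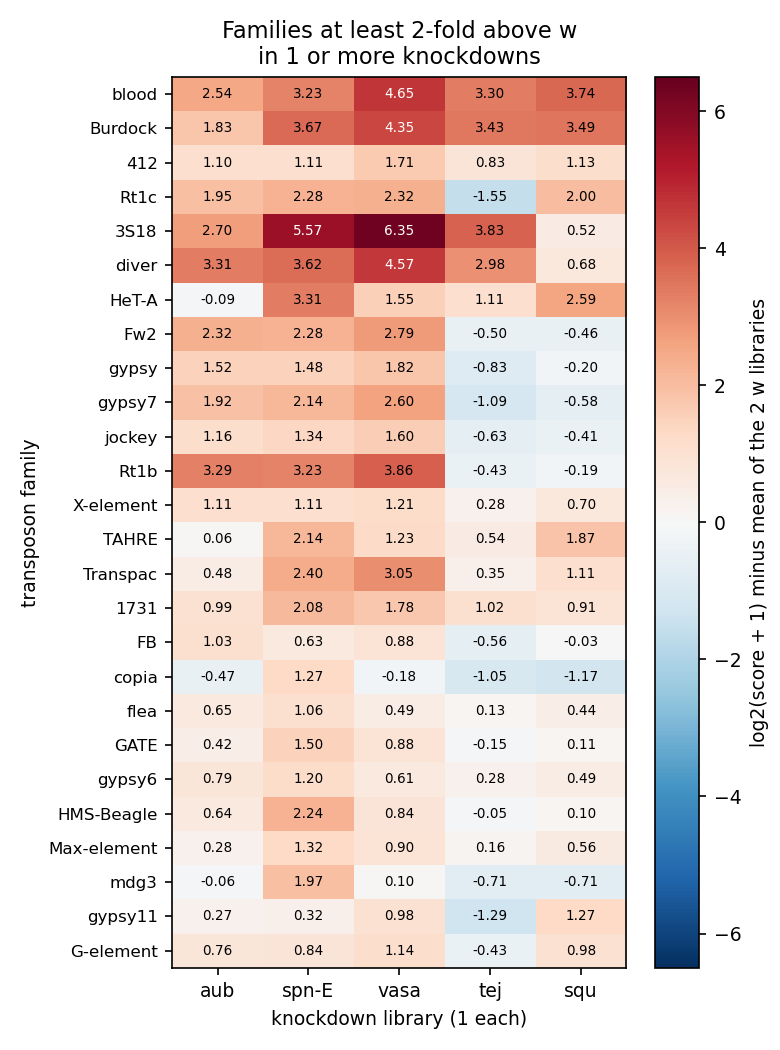
Difference of log2(score + 1) from the mean of the 2 w libraries (colour and number) for the 26 families not named for other species that were at least 2-fold above w in 1 or more of the 5 knockdowns, 1 library per column. The 2 families at the top are high in all columns, the block from Fw2 to X-element is high in aub, spn-E and vasa, and the block from copia to mdg3 passes 2-fold in spn-E alone.

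Counted in single libraries, 17 of 159 families (10.7%) were at least 2-fold above the mean of w with aub, 27 (17%) with spn-E, 21 (13.2%) with vasa, 6 (3.77%) with tej and 8 (5.03%) with squ. At least 2-fold below it were 3 (1.89%) with aub, 4 (2.52%) with spn-E, 5 (3.14%) with vasa, 11 (6.92%) with tej and 4 (2.52%) with squ. The 2 w libraries were themselves at least 2-fold apart for 11 families (6.92%), 6 higher in replicate 1 and 5 in replicate 2; counted in both directions together, tej had 17 families and squ 12. With 1 library per knockdown these counts have no replicate check. If scores were divided by genome-mapped reads, as if they were raw reads, the tej library would have 1 family higher and 155 lower; among its 6 families above w, HeT-A and 1731 would turn to below. Under quantile normalization 412, Max-element, copia, gypsy and jockey turned to below w with spn-E, and 412 with vasa.

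The spn-E library was at least 2-fold above w for 7 families of D. melanogaster that no other of the 5 knockdowns brought past that fold: copia, flea, GATE, gypsy6, HMS-Beagle, Max-element and mdg3, all LTR retrotransposons. Of these 7, GATE, HMS-Beagle, Max-element and mdg3 stayed past 2-fold in spn-E with median-ratio scaling, and only HMS-Beagle and mdg3 with quantile normalization or division by genome-mapped reads. The mdg3 score was 519 with spn-E and 126 with aub, 141 with vasa, 80 with tej and 80 with squ, and 151 and 115 in w. For HMS-Beagle the scores were 557 with spn-E, 183 with aub, 211 with vasa, 113 with tej and 126 with squ, and 151 and 91 in w. The copia score was 661 with spn-E, 197 with aub, 241 with vasa, 132 with tej and 121 with squ, and 404 and 185 in w, a wide gap between the controls. For these 3 families spn-E was the highest of the 7 libraries and, for mdg3 and copia, the only knockdown above both w libraries. The other libraries had 1 such family of D. melanogaster each, FB with aub, G-element with vasa and gypsy11 with squ, and tej had 0. Of these 3, only gypsy11 stayed past 2-fold under all 3 scalings.

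Further families of the highest mean differences were Transpac, Rt1c, 1731 and 412. Transpac, an LTR element, scored 169 with aub, 643 with spn-E, 1004 with vasa, 154 with tej and 261 with squ, and 129 and 113 in w. The copia-type element 1731 scored 305, 651, 526, 311 and 288 in the same order, and 140 and 167 in w. All 5 knockdowns were above both w libraries for each of these, though neither passed: Transpac differed by 1.48 (SE 0.74, adjusted p = 0.310) and 1731 by 1.36 (SE 0.42, adjusted p = 0.198). The LTR element 412 scored 634 with aub, 638 with spn-E, 970 with vasa, 524 with tej and 646 with squ, and 401 and 217 in w, a difference of 1.18 (SE 0.49, adjusted p = 0.224) that turned to -0.07 after quantile normalization. Rt1c, a non-LTR element related to Rt1b, scored 913, 1153, 1186, 80 and 948 in the order used above, and 652 and 85 in w. Its w libraries lay 2.92 apart on the log2 scale, the widest gap between them for any of the 159 families, so a value near either level occurs in the control.

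At the other end the lowest differences of all 159 families belonged to 3 named for other species, Dnet_R1A (-2.01), Dbuz_BuT3 (-1.25) and Dbuz_Galileo (-1.02), with adjusted p of 0.198, 0.198 and 0.103 in limma; without squ Dnet_R1A passed, and without w replicate 1 Dbuz_Galileo. Next came Doc, a non-LTR retrotransposon of the jockey type, which was below both w libraries in all 5 knockdowns. It scored 284 with aub, 312 with spn-E, 301 with vasa, 160 with tej and 194 with squ, and 523 and 417 in w. The 2 ovary libraries, whose labels name no knockdown, gave 228 and 241, within the range of the 5 knockdowns and under both w libraries. The mean difference was -0.95 (SE 0.38, adjusted p = 0.208 in limma). It was -1.07 after median-ratio scaling and -1.79 after division by genome-mapped reads. After quantile normalization it was -3.23 (adjusted p = 0.0143 in limma). That scaling replaces scores by rank, and Doc had the highest score of w replicate 2. Its w values there came from the top-ranked scores, which were far larger in the knockdowns, so the size of that difference rests on the scaling. The next lowest families not named for other species had small scores: Tom1 at 6 to 9 in the knockdowns against 9 and 16, transib1 at 7 to 10 against 15 and 12, G3 at 36 to 53 against 58 and 60, and G7 at 9 to 12 against 11 and 18. None of these passed. The I-element, known from hybrid dysgenesis, scored 123 with aub, 138 with spn-E, 102 with vasa, 64 with tej and 76 with squ, and 155 and 100 in w, so that no knockdown exceeded the higher control.

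The families were also counted by where they are known to be expressed. The lists were chosen with earlier results of these data known, so these counts are description and not independent support. Of 17 germline families 6 were at least 2-fold above w with aub, 12 with spn-E, 8 with vasa, 5 with tej and 4 with squ, beside 10.7%, 17%, 13.2%, 3.77% and 5.03% of all families. At least 2-fold below w were 3 of the 17 with tej and 2 with squ, and 0 with aub, spn-E or vasa. The median difference of the germline list for the group was 0.69, beside 0.12 for all 159 families. Of 12 somatic families 1 was 2-fold above w with aub, 1 with spn-E and 1 with vasa, in each case gypsy, and 0 with tej and squ, to be read beside the shares of all families just given. Stalker4 was 2-fold below w with tej, and the median of the list was -0.10. The somatic families gtwin, at 195 to 277 against 149 and 140, and Tirant, at 129 to 178 against 92 and 87, were above both w libraries in all 5 knockdowns. None of the 12 was at 0 in any of the 7 libraries, and ZAM, a retrovirus-like element of follicle cells, scored 63 to 83 in the knockdowns and 86 and 55 in w. The summed score of the somatic list was 1922 with aub, 2150 with spn-E, 2163 with vasa, 1140 with tej and 1505 with squ, and 1701 and 1344 in w, so these ranges overlapped; its part in the other results was not tested. The germline list summed to 9050, 19536, 29968, 8856 and 8112 in the same order, and to 3436 and 2779 in w. By structure, 59 LTR families had a median of 0.24, 36 non-LTR families 0.16 and 23 DNA transposons 0.03. Among the DNA transposons only FB, with aub, reached 2-fold above w. No family of any list was called in limma.

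**Figure D4:**
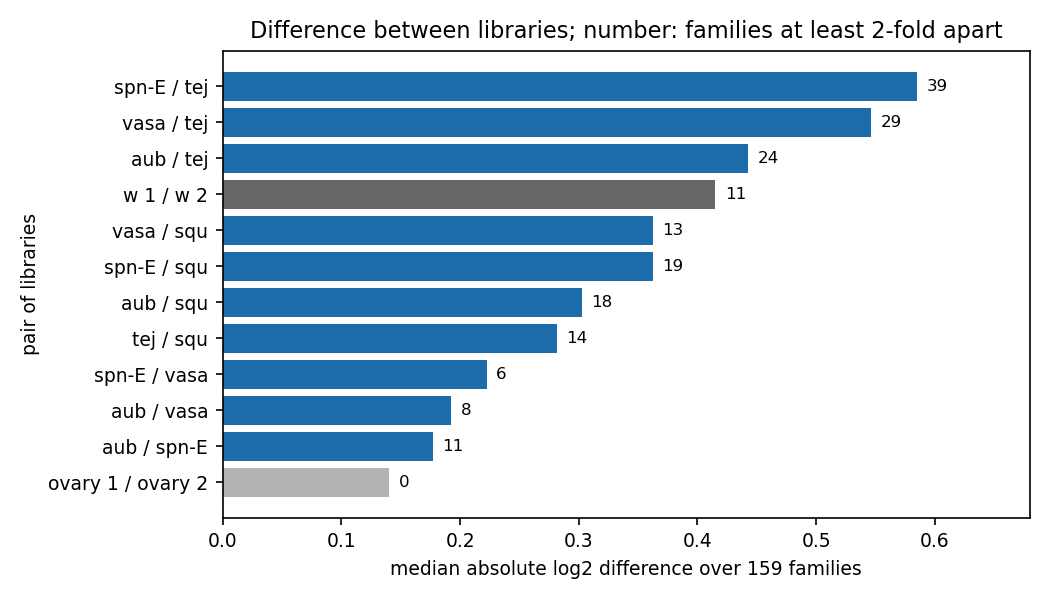
Median absolute difference of log2(score + 1) over 159 families for each pair of the 5 knockdown libraries (blue), for the 2 w libraries (dark grey) and for the 2 ovary libraries (light grey); the number beside each bar counts families at least 2-fold apart. The pairs among aub, spn-E and vasa are the closest of the knockdowns, and pairs of tej with these 3 differ most.

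The 5 knockdowns were then compared with each other directly, without w. The closest libraries were aub and spn-E, with a median absolute log2 difference of 0.18 over 159 families, then aub and vasa with 0.19 and spn-E and vasa with 0.22. These pairs lay closer together than the 2 w libraries did, at 0.42, and not as close as the 2 ovary libraries, at 0.14. By this median all pairs with squ were closer than the w pair as well, and only tej with aub, spn-E or vasa was farther apart. By the count of families at least 2-fold apart the picture differed. The w pair had 11 (6.92%), the same as aub with spn-E, and every pair with squ had more, 13 to 19. At least 2-fold apart were 11 families (6.92%) between aub and spn-E, all 11 higher with spn-E, 8 (5.03%) between aub and vasa and 6 (3.77%) between spn-E and vasa. The tej library differed from spn-E by 0.58 with 39 families (24.5%) at least 2-fold apart, 37 of them higher with spn-E, from vasa by 0.55 with 29 families (18.2%) and from aub by 0.44 with 24 families (15.1%). The squ library was 0.28 from tej with 14 families (8.81%) apart, 0.30 from aub with 18 (11.3%), 0.36 from spn-E with 19 (11.9%) and 0.36 from vasa with 13 (8.18%). The tej library is also the deepest, and its median difference from w was -0.29, against 0.19 with aub, 0.28 with spn-E, 0.33 with vasa and 0.05 with squ; the part of depth in this was not tested.

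Finally the nuage knockdowns were set against other germline knockdowns of the pathway in a joint limma fit over 15 libraries, with no control. These were the cluster factors rhi, del and cuff and the biogenesis factors armi, zuc, gasz and shu. The biogenesis factors act in the processing of piRNA precursors or the loading of PIWI proteins. The last set held the nuclear silencing factors piwi, mael and CG3893 (asterix). Each set is made of different genes with 1 library each. The SE and p therefore measure the spread between genes and fly lines, not between replicates. Against the biogenesis knockdowns 11 families (6.92%) were lower with nuage knockdowns and 0 (0%) higher in limma, where 43 (27%) had an unadjusted p under 0.05 in either direction. They included mdg3, at 80 to 519 against 866 to 8656 with -3.77 on the log2 scale (SE 0.83, adjusted p = 0.0229), HeT-A, at 122 to 1301 against 1619 to 8515 with -2.94 (SE 0.69, adjusted p = 0.0229), and TAHRE, at 159 to 673 against 1001 to 3012 with -2.41 (SE 0.49, adjusted p = 0.0183). The groups did not overlap for any of these, but this also held for families that did not pass. Examples were invader3, at 65 to 95 against 103 to 172, and Max-element, at 202 to 451 against 495 to 954. The share of all families without overlap in this comparison was not counted. The smaller but steadier difference was that of invader4, an LTR element, at 47 to 80 against 131 to 238 with -1.26 (SE 0.22, adjusted p = 0.00655), which passed in all 15 fits that left out 1 library. The count of 11 was 1 without aub, shu or tej, 2 without zuc, 3 without squ and 5 without vasa. In these 15 fits mdg3 and TAHRE each passed 11 times and HeT-A 10 times; mdg3 missed without aub, shu, squ or tej, TAHRE without aub, shu, tej or zuc, and HeT-A without aub, shu, tej, vasa or zuc.

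Against the nuclear silencing knockdowns 3 families (1.89%) were lower and 0 (0%) higher in limma, where 31 (19.5%) had an unadjusted p under 0.05: invader4, at 122 to 198 there, with -1.20 (SE 0.23, adjusted p = 0.0237), mdg3, at 1270 to 4969, with -3.98 (SE 0.91, adjusted p = 0.0475), and Bari1, a DNA transposon, at 19 to 31 against 46 to 60, with -1.05 (SE 0.25, adjusted p = 0.0475). This count was 0 without mael, piwi, squ, tej or vasa, 1 without armi, aub, cuff, gasz or zuc, and 10 without spn-E. Of the 15 fits, invader4 passed in 10, missing without mael, piwi, squ, tej or vasa, mdg3 in 5 and Bari1 in 4. Against the cluster factors limma called 0 families (0%), where 19 (11.9%) had an unadjusted p under 0.05. The lowest p belonged to gypsy12, at 175 to 301 against 391 to 2028 with -2.25 (SE 0.49, adjusted p = 0.0675), then pogo, at 29 to 42 against 21 to 22 with 0.67 (SE 0.16, adjusted p = 0.0811), and 412, at 524 to 970 against 225 to 292 with 1.40 (SE 0.36, adjusted p = 0.0916). Without rhi 6 families were called, without shu 3 and without tej 1.

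**Figure D5:**
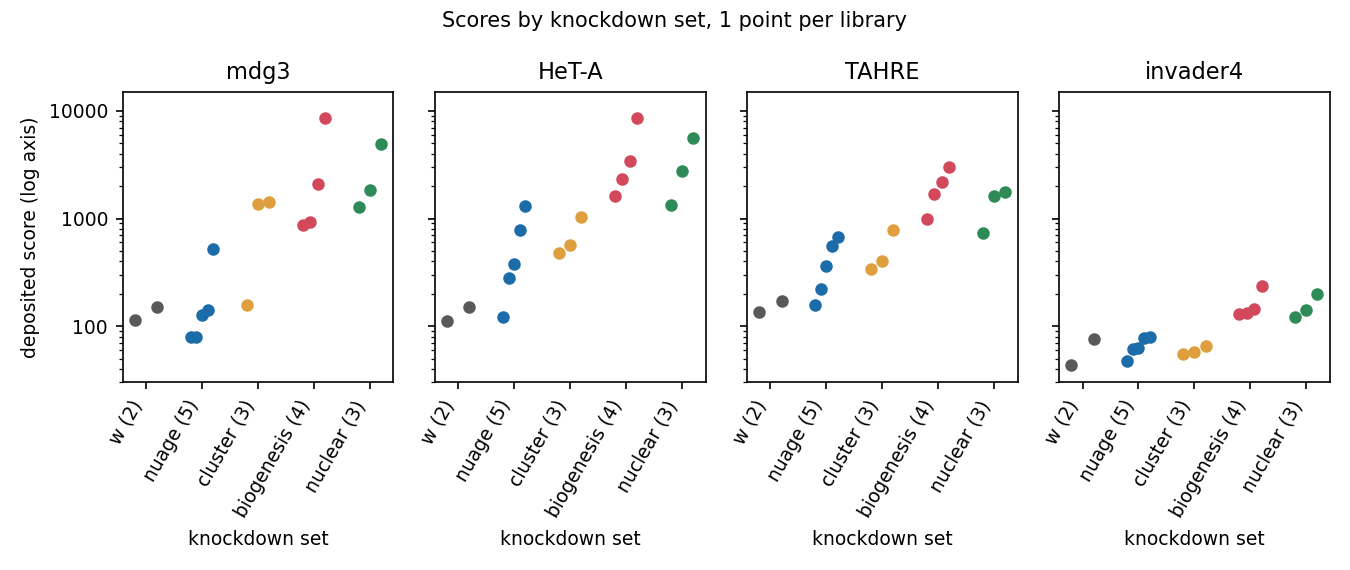
Deposited score (log axis) of mdg3, HeT-A, TAHRE and invader4 in single libraries of w (2), nuage (5), cluster (3), biogenesis (4) and nuclear silencing (3) knockdowns. All nuage points lie under all biogenesis points in the 4 panels, and under all nuclear silencing points as well. Families that did not pass also lacked overlap, among them HeT-A and TAHRE against nuclear silencing (adjusted p = 0.0776 in limma). The share of all 159 families without overlap was not counted for either set.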

How the data were processed

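Per the labels' protocols, total RNA taken with TRIzol was cleared of ribosomal RNA (Ribo-Zero Gold) and made into libraries with ScriptSeq V2. Build dm3 and the tools Bowtie, CASAVA 1.3, Cufflinks and TopHat are listed, without roles, in the submitters' processing notes. The deposited transposon score is a whole number per family, and the sources used here do not give its unit, its scaling or how reads were assigned. No counting interval is given, because the reads behind a score are unknown. Scores were used as deposited, on log2(score + 1), for families that reached 10 in 2 or more of 22 libraries; differences of low families are understated, and folds are on this scale. Tests used limma 3.58.1 in R 4.3.3 (lmFit, eBayes with trend, 2-sided, Benjamini-Hochberg adjusted p under 0.05), with 5 residual degrees of freedom for the group against w and 11 for the fit over 15 libraries; the procedure was tested on simulated data. Whether the w libraries came from separate flies is not stated, so their spread may be technical. Families named in the text were taken by rank among those not named for other species: the 10 highest and 5 lowest differences, the 3 highest per knockdown, the 5 widest ranges, the telomeric families and the 3 lowest p against each other set. Others, those of other species included, are named as members of a count of families past 2-fold or as members of a list. The members, lists and rules were chosen with earlier results of these data known. Alternatives were other pseudocounts, filters, scalings, controls and fits, and leaving out each library. Deposited gene-level values were not used, and 1 family without a value in the gasz library was left as missing there.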

Additional observations from a re-analysis of the deposited data

Results flagged for a closer look

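The Rt1c score of 80 with tej lay far below the other 4 nuage knockdowns (913 to 1186); such a gap flags about 1 group in 20 by chance, and the w libraries, at 652 and 85, lay far apart as well. Differences between the nuage set and another set of knockdowns that passed in limma were, against the biogenesis set, those of mdg3 (-3.77), HeT-A (-2.94), HMS-Beagle (-2.70), copia (-2.62), TAHRE (-2.41), gypsy12 (-1.62), GATE (-1.49), Juan (-1.39), invader4 (-1.26), accord (-1.03) and 1 further LTR family, of the somatic list (-1.03) and, against the nuclear silencing set, those of Bari1 (-1.05), invader4 (-1.20) and mdg3 (-3.98).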

How the results depend on the processing

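The count of families called between nuage knockdowns and w, 0, was 1 after quantile normalization, 2 without the trend, 1 with all libraries in the fit and 8 with the ovary libraries added to the control, and 0 to 1 when single libraries were left out. Against the cluster set the count of 0 was 1 with median-ratio scaling and 3 with quantile normalization (0 to 6 without single libraries). Against the biogenesis set 11 became 2 with quantile normalization and 4 after division by genome-mapped reads (1 to 16). Against the nuclear silencing set 3 became 0 with median-ratio scaling and 1 without the trend (0 to 10). The families at least 2-fold from w with tej, 17 in either direction, numbered 9 when both w libraries had to be passed, 11 with a pseudocount of 10, 29 after quantile normalization and 156 after division by genome-mapped reads; with spn-E 31 became 48 after that division, and with squ 12 became 25 after quantile normalization. Without either w library these counts were 19 to 28 for aub, 25 to 46 for spn-E, 22 to 39 for vasa, 21 to 23 for tej and 13 to 19 for squ, the 19 without w replicate 1. The median differences of tej from aub, spn-E, vasa and squ became 2.32, 2.20, 2.56 and 2.75 after division by genome-mapped reads, which divides the tej library by the largest read total. The ratio of summed scores was 1.76 to 2.32 without single libraries, 2.27 without families named for other species and 1.40 after that division. The other causes were not tested. Against w no family was called, and under at least 1 alternative Burdock, blood, diver, 1731, Doc, X-element, Tirant, Tc1-2, Dnet_R1A and Dbuz_Galileo passed. No paired analysis was possible, because the 5 knockdown libraries are of different genes, with 1 library each, and none is paired with a w library. Depth behind a score is unknown, and the w pair, at a median distance of 0.42, limits what 2 controls can show.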

Other observations

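Families named for other Drosophila species were 40 of the 159 tested, with a median difference of -0.17 from w in the nuage group. Dnet_R1A, named for an element of ribosomal DNA, scored 13 with aub, 12 with spn-E, 14 with vasa, 13 with tej and 88 with squ, and 52 and 124 in w. The 2 ovary libraries gave 12 and 11, so that this family had a low and a high level among both knockdowns and libraries without a piRNA knockdown. Damb_P-element_T scored 125 with aub, 99 with spn-E and 178 with vasa, 21 with tej and 24 with squ, and 51 and 65 in w. R2-element, which inserts into ribosomal RNA genes, scored 65 with aub, 53 with spn-E, 56 with vasa, 40 with tej and 59 with squ, above 30 and 39 in w, with a difference of 0.64 (SE 0.22, adjusted p = 0.198 in limma).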
